A study of Mus musculus with 6 samples.

Results

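The enzymes of the citric acid cycle were followed in heart preparations of C57BL/6J mice, through the 9 genes Cs, Idh3a, Idh3b, Idh3g, Ogdh, Dlst, Suclg1, Fh1 and Mdh2. They were taken by gene symbol from a table of 32479 rows, each member stands on 1 row, and all 9 passed the filter on low values that left 10995 rows for testing. The data are RNA sequencing of 6 libraries in 2 groups, 3 from untreated control mice and 3 from mice given carbon tetrachloride (CCl4), a solvent that scars the liver when dosed repeatedly and was used here to model cirrhosis. Each library is labelled as primary cardiac fibroblasts, and the design names 3 mice a group. Both groups are C57BL/6J, no transgene or other agent is named, and the sources used here do not give the age and sex of the mice or the dose and duration of CCl4. The series asks how cirrhosis acts on the heart.

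The citric acid cycle runs in the mitochondrial matrix, where it oxidises the acetyl groups that come from pyruvate, fatty acids and ketone bodies to CO2 and passes the electrons to the respiratory chain as NADH and reduced flavin. Citrate synthase opens the cycle. The NAD-dependent isocitrate dehydrogenase and the 2-oxoglutarate dehydrogenase complex, which are both activated by calcium, are its main points of control, and heart muscle, with its dense mitochondria, holds more of these enzymes than most tissues.

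Of the 9 genes, Idh3a and Dlst rose in CCl4 and none of the others passed the test. Idh3a, the catalytic subunit of NAD-dependent isocitrate dehydrogenase, was 1.52 times as high, and Dlst, the core subunit of the 2-oxoglutarate dehydrogenase complex, 1.44 times. Among their partners in the same complexes, Idh3b and Idh3g averaged 12.8% and 4.75% lower in CCl4 and Ogdh 15.7% higher, and none of these passed. The count of 2 of 9 called stands against 31.8% of all tested rows, that of 2 higher against 9.64% called higher and that of 0 lower against 22.2% called lower. The median log2 fold change of the 9 genes was 0.05, against -0.09 over all rows tested. With so few members these shares are a description only. Fold changes are CCl4 minus control on the log2(FPKM + 1) scale (FPKM is a count of fragments divided by the length of the gene model and by the number of fragments mapped in that library). A call means an adjusted p under 0.05 in limma, with Benjamini-Hochberg adjustment over all rows tested.

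**Figure D1:**
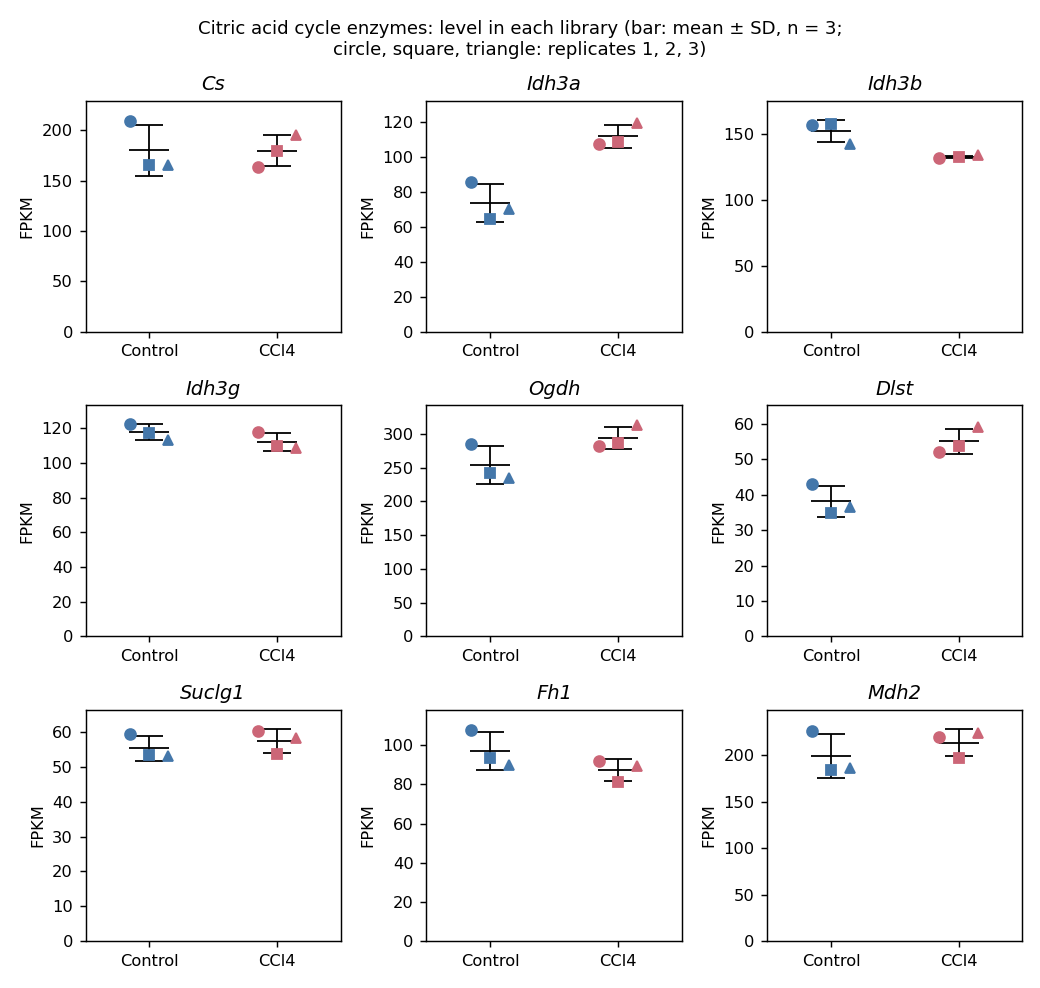
FPKM of the 9 citric acid cycle genes in each of the 6 libraries, with the mean and SD of the 3 libraries of a group as bars; each axis starts at 0. The groups lie apart for Idh3a and Dlst, which are higher in every CCl4 library, and for Idh3b, which is lower in each of them, and they overlap for the other 6 genes. Over all tested rows the groups lie apart for 48.7% (14.7% higher, 34.0% lower).

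All 9 transcripts were abundant. Averaged over the 6 libraries they lay between the 94.8th percentile of tested rows, for Dlst, and the 99.0th, for Ogdh. FPKM is a level per length of gene model, so levels can be compared between genes. In control libraries the order ran from Ogdh at 254.0 ± 27.9 FPKM (SD, n = 3) through Mdh2, Cs, Idh3b, Idh3g, Fh1, Idh3a and Suclg1 to Dlst at 38.1 ± 4.36 FPKM. Of the 8 neighbouring pairs in that order only Mdh2 and Cs overlapped between libraries. In CCl4 libraries Idh3a stood above Fh1 and overlapped with Idh3g, and Dlst overlapped with Suclg1. The summed level of the 9 genes was 1167 ± 113 FPKM in the controls and 1244 ± 50.6 FPKM in the CCl4 group (SD, n = 3 each), and control replicate 1, at 1298 FPKM, lay within the CCl4 range of 1204 to 1301. That library held the highest control value of 8 of the 9 genes, all but Idh3b.

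Transcripts of heart muscle cells outweighed those of fibroblasts in every library, whatever the label. The 20 cardiomyocyte markers summed to between 18002 and 21572 FPKM in the controls and between 24285 and 26259 FPKM in the CCl4 group, and the 15 fibroblast markers to between 490.8 and 802.7 and between 668.6 and 681.4 FPKM. Of the cardiomyocyte markers 5 rose (2 to 8 over the alternatives) and 1 fell. Over all tested rows 9.64% were called higher and 22.2% lower, which is the share to set beside each marker count here. The oxygen carrier Mb averaged 3815 and 4331 FPKM (adjusted p = 0.119). Actc1, a sarcomeric actin, rose by 1.78 ± 0.17 (SE) and Myh7, a slow myosin, fell by 3.50 on the log2 scale. Of the fibroblast markers 10 rose (6 to 11 over the alternatives) and none of the others fell, with a median log2 fold change of 0.82. The collagens Col3a1 and Col1a1 rose by 2.54 ± 0.23 and 1.88 ± 0.17 and the proteoglycan Lum by 1.59 ± 0.15 (SE). Most of the fibroblast sum came from Gsn, which averaged 413.9 and 358.3 FPKM (adjusted p = 0.391), and Dcn, at 103.1 and 81.7 FPKM (0.274), neither of which passed. No marker of either list was at 0 in all libraries. The summed level of the 9 cycle genes equalled 6.03% ± 0.0289 of the cardiomyocyte sum in control and 4.96% ± 0.290 in the CCl4 group (SD, n = 3 each). With Actc1 left out of that sum, an alternative chosen after seeing the data, the values were 6.62% ± 0.115 and 6.47% ± 0.399 and the groups overlapped. The markers of endothelial cells summed to between 211.8 and 247.8 FPKM in the controls and 223.3 and 244.1 FPKM in the CCl4 group, those of macrophages to between 155.1 and 199.0 and 173.8 and 192 FPKM, and those of vessel-wall cells to between 201.0 and 233.3 and 169.9 and 250.8 FPKM. Of 10 endothelial markers 1 rose (1 to 4 over the alternatives) and of 9 vessel-wall markers 3 rose (1 to 5). None of either list was called lower. Of 9 tested macrophage markers 1 rose and 1 fell. The endothelial marker called was the receptor Kdr (1.49-fold, adjusted p = 0.00468). Acta2 (2.14-fold, 0.0013), Cspg4 and Cnn1 were the vessel-wall markers that rose. Among macrophage markers Cd68 rose (1.48-fold, 0.0113), and the scavenger receptor Cd163 fell by 0.97 on the log2 scale (0.00175). Rgs5, the most abundant vessel-wall marker, was lower in every CCl4 library (means of 145.7 and 113.2 FPKM) but did not pass (0.0801). All 5 red-cell markers rose (0 to 5 over the alternatives), while the 6 adipocyte markers summed to at most 2.54 FPKM in any library. The part of these cell types in the changes of the cycle genes was not tested, and in such bulk samples fewer cells of a type and less RNA per cell cannot be told apart. Over all rows 1060 were called higher and 2441 lower, a split that moved to 679 and 4394 after rescaling to a common sum (TPM), where the same filter also left more rows to test, 12608 against 10995, to 798 and 3124 without the mitochondrial rows, to 1526 and 1706 with TMM scaling (trimmed mean of M-values), to 1569 and 1631 with median-ratio and to 1722 and 1641 with quantile scaling. The median over all rows moved with it, to -0.22 as TPM and -0.02 with TMM. The 37 mitochondrial rows took at most 50.73% of the FPKM sum in any control and at least 52.05% in each CCl4 library.

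Cs encodes citrate synthase, which joins acetyl-CoA to oxaloacetate and whose activity is a common measure of mitochondrial content. In control libraries it stood at 209.6, 165.5 and 165.7 FPKM and in CCl4 libraries at 164.0, 179.8 and 195.4 FPKM. The groups overlapped, with control replicate 1 the highest and CCl4 replicate 1 the lowest of all 6. Its log2 fold change was 0.00112 ± 0.115 (SE; limma adjusted p = 0.995), with a 95% interval of -0.26 to 0.27, and its sign depended on scaling and on single libraries. Csl, an intronless copy that shared 8.60% of the 31-base words of the longest coding Cs transcript, averaged 0.055 FPKM. Cs lies on chromosome 10 at 128337734 to 128362479 in GRCm38.

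The oxidation of isocitrate to 2-oxoglutarate gave the largest contrast between partners among the ratios tested. NAD-dependent isocitrate dehydrogenase is built of the catalytic alpha subunit from Idh3a, the beta subunit from Idh3b and the regulatory gamma subunit from Idh3g. Idh3a stood at 85.5, 64.6 and 69.9 FPKM in the controls and at 107.3, 108.5 and 119.4 FPKM in the CCl4 group. Every CCl4 library lay above every control library. The log2 fold change was 0.61 ± 0.11 (SE; limma adjusted p = 0.00552), and it stayed called under all 20 alternatives, between 0.46 as TPM and 0.73 with quantile scaling. Idh3a lies on chromosome 9 at 54586334 to 54604661, with its end 215 bases from that of Acsbg1 on the opposite strand, a gene at 0.09 FPKM.

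Idh3b was lower in each CCl4 library but did not pass. It stood at 157.4, 157.6 and 142.6 FPKM in the controls and at 132.2, 132.8 and 134.0 FPKM in the CCl4 group, and the groups did not overlap, as was true of 48.7% of all tested rows (14.7% higher, 34.0% lower). The log2 fold change was -0.19 ± 0.07 (SE; adjusted p = 0.0782), and Idh3b was called lower as TPM (-0.35, adjusted p = 0.0114) and without the mitochondrial rows (-0.27, 0.0298). Idh3g stood at 122.6, 117.2 and 113.4 FPKM in the controls and at 117.8, 110.0 and 108.5 FPKM in the CCl4 group, with the steadiest control level of the 9 genes (a coefficient of variation of 3.93%). Its log2 fold change was -0.07 ± 0.07 (adjusted p = 0.50, 95% interval -0.24 to 0.10), and the sign turned with TMM, quantile and median-ratio scaling. Idh3b lies on chromosome 2 at 130279309 to 130284547 and Idh3g on chromosome X at 73778963 to 73786897, where its start is 130 bases from that of Ssr4 on the other strand.

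A ratio of genes within a library does not depend on a scaling that multiplies the whole library by a single factor. Quantile scaling is not of that kind, and the ratios were not recomputed under it. How often ratios of gene pairs in general lie apart between the groups was not measured. The ratio of Idh3a to Idh3b was 0.543, 0.410 and 0.491 in the controls and 0.812, 0.817 and 0.891 in CCl4 libraries. That of Idh3a to Idh3g was 0.698, 0.551 and 0.617 in the controls and 0.911, 0.987 and 1.10 in CCl4 libraries. Both were higher in every CCl4 library than in any control. The ratio of Idh3b to Idh3g was 1.30 ± 0.0446 and 1.19 ± 0.0591 (SD, n = 3 each), lower in every CCl4 library. In two-sided exact permutation tests each gave p = 0.1, the smallest that 3 against 3 libraries allow. After Benjamini-Hochberg adjustment over the 10 ratios tested each gave 0.143. For Idh3a to Idh3b this outcome followed from the levels, as Idh3a was higher and Idh3b lower in every CCl4 library. That test adds nothing to them. The summed level of the 3 subunits was close in the groups, at 343.6 ± 20.1 and 356.8 ± 5.33 FPKM, while the share of Idh3a in it was 21.3% ± 2.19 in the controls and 31.3% ± 1.52 in CCl4 libraries.

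Idh2, the mitochondrial NADP-dependent isocitrate dehydrogenase, which carries out the same oxidation but makes NADPH, fell. It was the most abundant of the 18 cycle genes measured, at 853.3, 925.5 and 811.4 FPKM in the controls and 478.2, 496.5 and 500.7 FPKM in the CCl4 group. That is a log2 fold change of -0.81 ± 0.08 (SE; limma adjusted p = 0.000404), called under all 20 alternatives. The ratio of Idh2 to the summed IDH3 subunits was 2.52 ± 0.198 in the controls and 1.38 ± 0.0379 in CCl4 libraries, and that of Idh3a to Idh2 averaged 0.0854 ± 0.0152 against 0.227 ± 0.0102 (SD, n = 3 each; exact permutation p = 0.1, adjusted p = 0.143). The outcome of that test also followed from the levels, as Idh3a was higher and Idh2 lower in every CCl4 library.

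The 2-oxoglutarate dehydrogenase complex turns 2-oxoglutarate into succinyl-CoA. Ogdh encodes its thiamine-dependent E1 subunit, Dlst the lipoate-bearing E2 core, and Dld the E3 flavoprotein that is shared with the pyruvate dehydrogenase and branched-chain complexes. Dlst stood at 43.1, 34.8 and 36.6 FPKM in the controls and at 52.2, 53.9 and 59.2 FPKM in the CCl4 group. As with Idh3a, each CCl4 library exceeded each control. This gave a log2 fold change of 0.52 ± 0.10 (SE; limma adjusted p = 0.00627), which stayed called under all 20 alternatives, between 0.37 as TPM and 0.66 with quantile scaling.

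Ogdh was at 285.9, 242.0 and 234.1 FPKM in the controls and at 281.6, 286.9 and 312.8 FPKM in the CCl4 group. Control replicate 1 lay inside the CCl4 range, and the other 2 controls below it. The log2 fold change of 0.21 ± 0.10 (SE; 95% interval -0.01 to 0.44) did not pass (adjusted p = 0.127), but did without control replicate 1 (0.30, adjusted p = 0.0232), with library weights (0.27, 0.0379) and with quantile scaling (0.29, 0.0274). Dld was at 89.2 ± 8.79 and 109.1 ± 4.45 FPKM (SD, n = 3 each) and rose by 0.29 ± 0.09 (adjusted p = 0.0389), a call lost under 9 of 20 alternatives, among them each omission of a library other than control replicate 1 (0.25 to 0.31, adjusted p 0.0707 to 0.134), TPM (0.14, 0.305) and the fit with no filter (0.0795). The ratio of Dlst to Ogdh was 0.151, 0.144 and 0.156 in the controls and 0.185, 0.188 and 0.189 in CCl4 libraries, higher in every CCl4 library (exact permutation p = 0.1, adjusted p = 0.143). The ratio of Dlst to Dld went from 0.427 ± 0.0122 to 0.504 ± 0.0134 and that of Dld to Ogdh from 0.351 ± 0.00660 to 0.372 ± 0.00616. The related gene Ogdhl, which encodes an E1 of the same kind, fell from 46.3 ± 5.66 to 24.3 ± 1.25 FPKM (adjusted p = 0.000737).

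**Figure D2:**
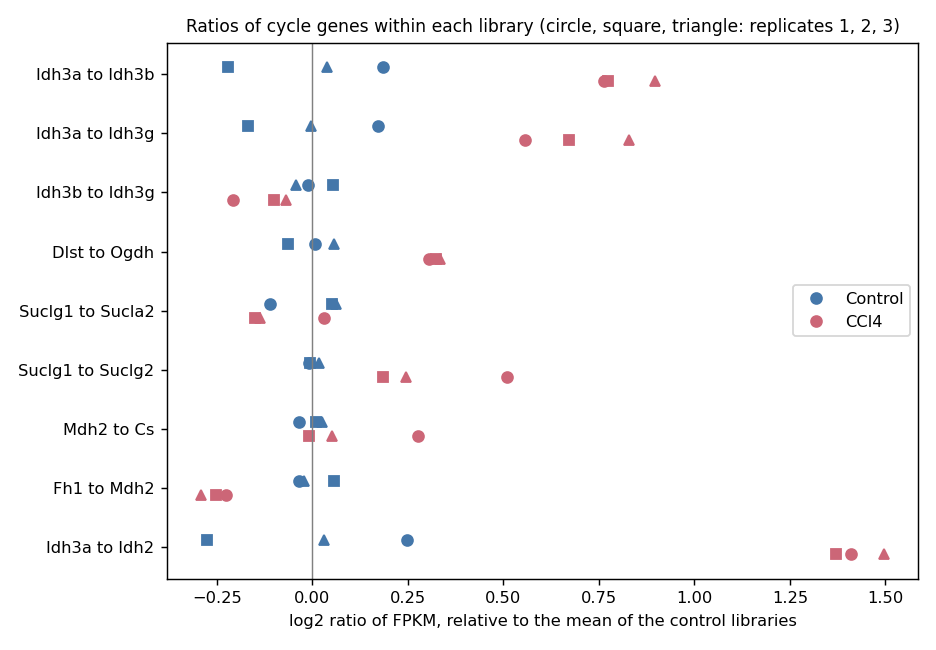
Ratio of FPKM of 9 pairs of cycle genes in each library, on a log2 axis relative to the mean of the control libraries. The CCl4 libraries lie apart from the controls for Idh3a against Idh3b, Idh3g and Idh2 and for Dlst against Ogdh, with mean differences of 0.81, 0.69, 1.43 and 0.32, and overlap them for Mdh2 to Cs and Suclg1 to Sucla2.

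The promoters of Dlst, which was called, and of its partner Ogdh, which was not, are shown. That of Mdh2 was added because it holds the same 8-base palindrome as Ogdh, so this shared match was fixed by the choice. A link between these letters and the levels was not tested. RefSeq windows of GRCm38 (250 bases before to 50 after a start) were found for 8 of the 9 genes, not for Idh3a; for Ogdh, with 6 windows, the most upstream was used. The 150 bases before each start are printed 5′ to 3′ on the gene's strand, which is the plus strand for all 3, with capitals for motif letters that lie wholly within them. They span chr12:85110683-85110832 for Dlst, chr11:6291447-6291596 for Ogdh and chr5:135778499-135778648 for Mdh2.
Dlst: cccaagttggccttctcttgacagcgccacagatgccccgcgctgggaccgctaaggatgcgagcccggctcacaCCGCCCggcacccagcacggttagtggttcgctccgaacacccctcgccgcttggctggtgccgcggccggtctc
Ogdh: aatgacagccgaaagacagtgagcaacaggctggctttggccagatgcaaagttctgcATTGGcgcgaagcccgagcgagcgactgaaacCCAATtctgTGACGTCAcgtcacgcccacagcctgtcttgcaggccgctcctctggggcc
Mdh2: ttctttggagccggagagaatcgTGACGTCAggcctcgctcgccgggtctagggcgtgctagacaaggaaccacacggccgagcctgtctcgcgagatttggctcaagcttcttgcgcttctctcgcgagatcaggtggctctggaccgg
The stretch before Dlst holds a GC box on the reverse strand. That before Ogdh holds CCAAT boxes in both orientations and the CREB palindrome TGACGTCA, which also stands before the RefSeq start of Mdh2. The GENCODE gene of Mdh2 begins upstream of that start, at 135778480, so the stretch printed for Mdh2 lies within that gene.

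Both strands of all 32851 RefSeq windows of 300 bases were searched for the same letters. TGACGTCA, which reads the same on both strands, stood in 2 of the 8 members' windows and in 1.79% of all windows. The GC box GGGCGG was in 5 of the 8 (35.7% of all), the CCAAT box CCAAT in 4 (37.4%), the ETS motif CCGGAAG in 3, namely Idh3b, Idh3g and Dlst (8.86%), and the YY1 motif AAGATGGC in 1, Idh3g (2.75%). The estrogen-related receptor motif TCAAGGTCA (0.423% of all), the PPAR direct repeat (0.040%), the palindromic NRF1 motif (4.603%) and the TATA box TATAAA (13.6%) were in none of the 8. The motifs overlapped nowhere in the 3 stretches printed. A match describes the letters of the window and nothing more.

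Succinyl-CoA synthetase makes nucleoside triphosphate from succinyl-CoA. Suclg1 encodes the alpha subunit, which pairs with the ATP-forming beta subunit from Sucla2 or the GTP-forming one from Suclg2. Suclg1 stood at 59.5, 53.5 and 53.2 FPKM in the controls and at 60.5, 53.7 and 58.5 FPKM in the CCl4 group. The groups overlapped, and the log2 fold change was 0.05 ± 0.08 (SE; limma adjusted p = 0.639, 95% interval -0.14 to 0.25), with a negative sign as TPM (-0.10) and without the mitochondrial rows (-0.02). Sucla2 was at 106.0 ± 14.4 and 116.4 ± 5.37 FPKM (SD, n = 3 each; adjusted p = 0.329) and Suclg2 at 30.3 ± 2.17 and 25.4 ± 1.92 FPKM (adjusted p = 0.0626). Suclg2 was lower in every CCl4 library and called lower as TPM (adjusted p = 0.0153) and without the mitochondrial rows (0.0329). The ratio of Suclg1 to Suclg2 was 1.83 ± 0.0184 in the controls and 2.28 ± 0.280 in CCl4 libraries, which did not overlap (exact permutation p = 0.1, adjusted p = 0.143), whereas that to Sucla2, at 0.526 ± 0.0348 and 0.495 ± 0.0353, overlapped (p = 0.2, adjusted p = 0.222). Gm15163 shares 27.3% of the words of Suclg2 and averaged 8.81 FPKM, so the Suclg2 level is uncertain. Suclg1 lies on chromosome 6 at 73248382 to 73276911.

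Succinate dehydrogenase, which is also complex II of the respiratory chain, links this step to the next. None of its 4 subunits passed: the flavoprotein Sdha was at 300.3 ± 28.2 and 258.7 ± 12.7 FPKM (adjusted p = 0.107), the iron-sulfur subunit Sdhb at 194 ± 18.1 and 211.6 ± 11.7 FPKM (0.314), and the membrane anchors Sdhc at 99.8 ± 4.12 and 95.5 ± 3.71 FPKM (0.538) and Sdhd at 222.8 ± 23.1 and 262.9 ± 14.3 FPKM (0.0843). Sdhd was called higher under 6 of 20 alternatives, among them without control replicate 1 (0.32, adjusted p = 0.0189) and with TMM scaling (0.33, 0.0392). Sdha was called lower under 2, as TPM (-0.37, 0.0208) and without the mitochondrial rows (-0.28, 0.0456).

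Fh1, the fumarase that hydrates fumarate to malate, stood at 108.1, 93.8 and 89.9 FPKM in the controls and at 91.9, 81.1 and 89.5 FPKM in the CCl4 group. Only CCl4 replicate 1 reached the control range, and the log2 fold change was -0.15 ± 0.09 (SE; limma adjusted p = 0.260, 95% interval -0.37 to 0.07). Fh1 was called lower as TPM (-0.30, adjusted p = 0.0462), and with quantile scaling its sign turned (0.00120). Mdh2, the malate dehydrogenase that returns oxaloacetate to citrate synthase, stood at 226.1, 184.1 and 186.5 FPKM in the controls and at 219.7, 197.4 and 223.8 FPKM in the CCl4 group. Here too control replicate 1 was high, the highest of all 6. Its log2 fold change was 0.11 ± 0.10 (adjusted p = 0.451, 95% interval -0.13 to 0.34), and negative as TPM (-0.05). The ratio of Fh1 to Mdh2 was 0.490 ± 0.0172 in the controls and 0.410 ± 0.00922 in CCl4 libraries and did not overlap (exact permutation p = 0.1, adjusted p = 0.143). Neither gene passed by itself, and the groups lay apart for 48.7% of single tested rows. The ratio of Mdh2 to Cs, the last and first enzymes, was 1.11 ± 0.0239 and 1.19 ± 0.128 (exact permutation p = 0.3, adjusted p = 0.3). Fh1 lies on chromosome 1 at 175600374 to 175625635, Mdh2 on chromosome 5 at 135778480 to 135790398, Ogdh on chromosome 11 at 6291633 to 6356642 and Dlst on chromosome 12 at 85110833 to 85134845.

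**Figure D3:**
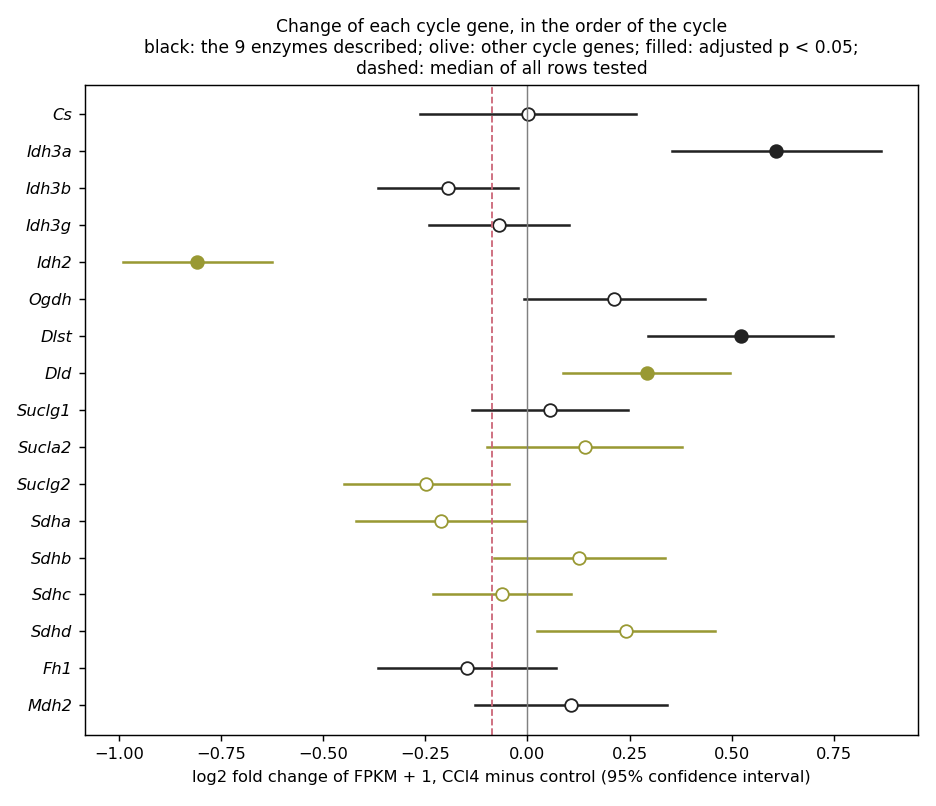
Log2 fold change of the cycle genes named in the text in the order of the cycle, with 95% confidence intervals from limma; the dashed line is the median of all rows tested. Idh3a, Dlst and Dld are higher and Idh2 is lower past the threshold, while the intervals of Idh3b, Suclg2, Sdha and Sdhd exclude 0 without a call after adjustment, and the rest hold 0.

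Over the 18 genes of the cycle, then, 3 rose, 1 fell and 14 did not pass, beside 9.64% of all tested rows called higher and 22.2% called lower. Their median log2 fold change was 0.03, against -0.09 over all rows. The 9 cycle genes that are not members summed to 2375 ± 141 FPKM in the controls and 1986 ± 66.4 FPKM in the CCl4 group (SD, n = 3 each). Idh2 alone averaged 863.4 and 491.8 FPKM.

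Scaling by a single factor a library moved all 9 members together. Quantile scaling moved them unevenly, with Mdh2 going from 0.11 to 0.14 and Idh3g from -0.07 to 0.09. Each of the 9 members was lowest as TPM, and Idh3a and Dlst were called higher under each of the 6 scalings tried. As TPM 2 members rose and 2 fell, Idh3b and Fh1; without the mitochondrial rows 2 rose and 1 fell; with quantile scaling 3 rose, the third being Ogdh.

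**Figure D4:**
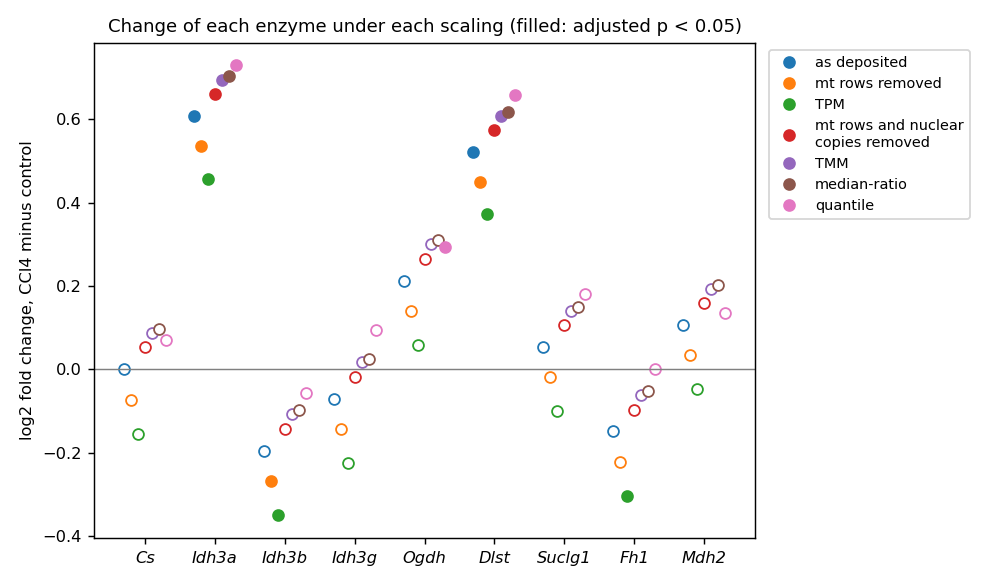
Log2 fold change of the 9 genes with FPKM as deposited and under 6 other scalings; filled points have an adjusted p under 0.05 in limma. Idh3a and Dlst are filled under each, while Cs, Idh3g, Suclg1, Fh1 and Mdh2 lie on both sides of 0.

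Genes that feed the cycle or make its cofactors give the setting. The list counts that follow stand beside 31.8% of all tested rows called, 9.64% higher and 22.2% lower, and are a description only. Of 10 tested genes of the pyruvate dehydrogenase complex and its regulators 5 rose and 3 fell. Its kinases Pdk4, Pdk1 and Pdk2, which switch the complex off, fell by 4.16, 0.50 and 0.44 on the log2 scale, and the phosphatase Pdp1, which switches it on, rose by 0.57 ± 0.12 (SE; adjusted p = 0.00937). The rises numbered 1 without control replicate 2 or without CCl4 replicate 3 and with no filter, and 2 as TPM.

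Of 21 tested genes of the list of anaplerosis and exchange 6 rose and 1 fell. The list covers genes that refill the cycle or pass its acids between compartments, and also others such as ketone body enzymes. The ketone body enzymes Bdh1 and Oxct1 rose by 2.78 ± 0.15 and 0.80 ± 0.18 (SE), the alanine aminotransferase Gpt by 1.29 ± 0.13, and the cytosolic malic enzyme Me1 fell by 0.59. Rises numbered 3 when control replicate 2, control replicate 3 or CCl4 replicate 3 was left out, and 2 when no row was filtered. The malate-aspartate shuttle enzymes Got1 and Mdh1 did not pass, at 0.30 ± 0.10 (adjusted p = 0.0541) and 0.17 ± 0.09 (0.181).

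Of 10 tested carriers of the inner membrane 3 rose and 2 fell. Slc25a11, which exchanges 2-oxoglutarate for malate, rose from 152.7 ± 9.89 to 205.5 ± 11.3 FPKM (adjusted p = 0.00683), and Mpc2, part of the pyruvate carrier, by 0.41 ± 0.11 (SE). The glutamate carrier Slc25a22 fell by 0.72 and the ATP/ADP carrier Slc25a4 by 0.35. Rises numbered 1 without control replicate 2 or without any 1 of the CCl4 libraries, as TPM and with no filter.

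Of 19 genes for lipoate attachment, iron-sulfur clusters and enzyme assembly or deacylation 8 rose and 2 fell, with a median log2 fold change of 0.22. They include the ferredoxin Fdx1 (0.60 ± 0.11, SE), Bola3 (0.62 ± 0.12), which acts in the maturation of lipoate-bearing enzymes such as that of Dlst, the complex II assembly factor Sdhaf4 (0.66 ± 0.13) and the desuccinylase Sirt5 (0.37 ± 0.08). Under 6 alternatives, among them the omission of control replicate 2 or of any 1 CCl4 library, 5 or 6 rose and 0 fell. Of 7 tested copies and relatives of cycle enzymes none rose and 3 fell, among them Ogdhl and Adhfe1 (-0.80), an enzyme of hydroxy acid oxidation; as TPM 5 fell.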

How the data were processed

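The authors deposited 1 table of FPKM values with a column for each of the 6 libraries, made with StringTie 2.1.6 on GRCm38 per the submitters' processing notes. Per the labels' protocols, messenger RNA was captured on oligo(dT) and libraries kept strand. The aligner, annotation release, filters and strand setting behind the table are not stated in the sources used here. FPKM sums ran from 519609 to 542738 in the controls and from 588661 to 602763 in the CCl4 group, so the groups did not overlap. The 37 mitochondrial rows took 48.6% to 53.2% of the sum of a library. No column belonged to other samples.

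Low values of 3565 single-exon genes gave a rough estimate of 39200000 to 42600000 fragments per control library and 29900000 to 37700000 per CCl4 library. Each CCl4 estimate thus lay below each control, and the part of depth in the results was not tested. Only 27.1% to 34.9% of these values lay within 0.1 of a whole fragment, so no count test was run. Rows with a mean of at least 1 FPKM were tested as log2(FPKM + 1) with limma 3.58.1 in R 4.3.3 (trend, no covariate, two-sided), which was tested on simulated data. TMM was computed without precision weights, trimming 30% of log ratios and 5% of levels at each end. Replicates come from 3 mice a group as far as the design states it. Same-numbered libraries were not treated as pairs.

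The members and gene lists were chosen with earlier results of these data known. All members and other cycle enzymes, and of each further list up to 4 called genes by smallest p, and of the cardiomyocyte and fibroblast markers some of the most abundant and of those with the smallest p, were to be named. A few items taken by these rules enter the counts and adjustments but are not reported here. Got1, Mdh1, Acsbg1 and the called endothelial, vessel-wall and macrophage markers were added after their values were seen. Positions are of the GENCODE M21 gene with the same symbol. Alternatives covered pseudocount, filter, scaling, variance model, replicate block and each library left out; removing the 7 nuclear copies of mitochondrial genes as well was chosen after seeing the data. Single ratios were compared by exact permutation of the 6 libraries.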

Additional observations from a re-analysis of the deposited data

How the results depend on the processing

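The calls of Idh3a, Dlst and Idh2 held under all 20 alternatives. Leaving out 1 library at a time gave 2 to 3 called members, with log2 fold changes of 0.52 to 0.72 for Idh3a and 0.46 to 0.61 for Dlst. Called members numbered 2 in the main fit, 4 as TPM, and 3 with quantile scaling, with library weights or without the mitochondrial rows. Called cycle genes outside the members numbered 2 (1 to 4 with a library left out), 1 with no filter or the replicate block, and 4 as TPM, with quantile scaling or without the mitochondrial rows. Called rows over the table numbered 3501, 2165 of 4915 at a mean of at least 5 FPKM, where fewer rows are tested, and 2180 to 3260 with 1 library left out, the lowest without CCl4 replicate 3.

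Signs turned, with no call, for Cs (-0.154 as TPM, -0.0723 without mitochondrial rows, and -0.06048 to 0.1137 with 1 library left out, negative without control replicate 2 or 3 or CCl4 replicate 2 or 3), Idh3g (0.01697 with TMM, 0.09359 with quantile, 0.02622 with median-ratio scaling), Suclg1 (-0.09906 as TPM, -0.01793 without mitochondrial rows), Fh1 (0.001204 with quantile scaling) and, as TPM, Mdh2 (-0.04807), Sucla2 (-0.01363) and Sdhb (-0.0276). For Sdhc it was 0.02345 with TMM, 0.09125 with quantile and 0.03269 with median-ratio scaling. The cause was not tested. Sucla2 was called higher with quantile scaling and without control replicate 1 (adjusted p = 0.0437 and 0.0389). All 10 ratios kept their direction, from 0.02 to 0.16 for Mdh2 to Cs and 1.29 to 1.55 for Idh3a to Idh2 with 1 library left out.

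Same-numbered libraries correlated at -0.064, 0.0461 and -0.038 in their deviations from the group means, and differently numbered ones at -0.0975 to 0.123. With 3 libraries a group these values cannot tell whether same-numbered libraries were handled together. With the replicate block 2651 rows were called, 2 members and 1 other cycle gene, Dld being lost (adjusted p = 0.0793). Only CCl4 replicate 2 correlated best with the library of its own number. In the lipoylation list 6 genes rose and 0 fell with the block. Of 220 recounts of the further lists 47 moved by more than 1.5 times. With 3 libraries a group and depth known only as an estimate, changes of the size seen for Ogdh or Idh3b were called under some settings only.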
